A study of Homo sapiens with 14 samples.

Results

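The 56 genes described here encode the protein folding, entry and quality control machinery of the endoplasmic reticulum (ER): 14 chaperones and lectins, 7 protein disulfide isomerases and related proteins, 12 parts of the translocon, the signal peptidase and their partners, 5 subunits of the oligosaccharyltransferase, 11 factors of ER-associated degradation (ERAD), 6 stress sensors and regulators, and 1 coat protein of ER exit vesicles. They were taken by gene symbol from the deposited tables of 58051 genes, from a list chosen with earlier results of these data known. All 56 were found in both tables and passed the filters on low values in every test. Secreted and membrane proteins enter the ER through the Sec61 translocon, receive N-linked sugars from the oligosaccharyltransferase, and fold with the help of chaperones and disulfide isomerases, while ERAD returns failed products to the cytosol for destruction. When unfolded protein accumulates, the sensors IRE1 (gene ERN1), PERK (EIF2AK3) and ATF6 start the unfolded protein response, in which the transcription factors XBP1, ATF6 and ATF4 raise many of these genes. Plasma cells secrete antibody at a high rate and depend on this machinery, and myeloma cells keep that dependence.

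RNA was sequenced in MM1.S and H929, established human myeloma cell lines, after lentiviral expression of a short hairpin RNA against ZBP1, which binds nucleic acids in the Z conformation in the cytosol, or of a scramble hairpin. The 14 libraries form 7 groups of 2. The groups are MM1.S with anti-ZBP1 shRNA 1 (shRNA1), MM1.S with anti-ZBP1 shRNA 2 (shRNA2) and MM1.S with scramble control, and, for H929, shRNA1, the scramble control for shRNA1, shRNA2 and the scramble control for shRNA2. All cells, scramble cells included, carry a lentiviral hairpin, and no label gives the time after transduction, the hairpin sequences or whether the replicates are separate cultures. The p-values take their error from how far the 2 libraries of a group lie apart, and that distance may be technical. In MM1.S both hairpins share the same 2 scramble libraries; in H929 each hairpin has its own. The deposited columns taken as shRNA2 in both lines, and as replicate 2 of the H929 scramble for shRNA1, carry other names than the labels and were assigned as the columns that remained.

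Promoter sequences show which of these genes carry the letters that stress-response factors are known to read. RefSeq promoter windows of 300 bases, from 250 before to 50 after the transcript start (GRCh38.p14), were available for 50 of the 56 genes. They were searched on both strands for the ER stress response element (ERSE, the letters CCAAT and CCACG with 9 bases of any kind between them), for ERSE-II (ATTGG and CCACG with 1 base between them) and for the unfolded protein response element (UPRE, TGACGTGG). ERSE was present for 6 of the 50 genes (12%) and for 25 of 27305 genes with a window (0.0916%), ERSE-II for 3 of 50 (6%) and 0.0696% of all genes, and UPRE for 7 of 50 (14%) and 0.927% of all genes. In all, 15 of the 50 (30%) held at least 1 of the 3, against 1.08% of all genes, and the UPRE of HYOU1 overlaps 1 of its ERSE-II matches. A match is a description of these letters and not of bound protein. The 56 genes were listed for their part in ER folding and the unfolded protein response, so these shares are not an independent test. The windows of 7 genes whose levels are followed below are printed 5′ to 3′ on the gene's strand, because they hold ERSE or ERSE-II, with the fixed letters of the matches in capitals (both arms of ERSE; in HYOU1, also the UPRE).
HSPA5 promoter (chr9:125241294-125241593, minus strand): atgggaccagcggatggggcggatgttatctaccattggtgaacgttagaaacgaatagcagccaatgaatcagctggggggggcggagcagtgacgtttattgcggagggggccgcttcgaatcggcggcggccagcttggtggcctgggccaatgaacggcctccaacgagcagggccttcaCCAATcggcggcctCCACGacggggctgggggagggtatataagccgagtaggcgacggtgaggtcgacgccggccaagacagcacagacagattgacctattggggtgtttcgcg
HSP90B1 promoter (chr12:103930160-103930459, plus strand): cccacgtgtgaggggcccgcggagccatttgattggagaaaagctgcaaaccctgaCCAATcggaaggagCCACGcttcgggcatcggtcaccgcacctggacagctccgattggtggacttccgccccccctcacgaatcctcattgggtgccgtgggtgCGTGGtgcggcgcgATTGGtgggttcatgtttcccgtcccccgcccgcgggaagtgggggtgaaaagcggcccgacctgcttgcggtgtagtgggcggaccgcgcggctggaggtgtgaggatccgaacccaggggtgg
CALR promoter (chr19:12938359-12938658, plus strand): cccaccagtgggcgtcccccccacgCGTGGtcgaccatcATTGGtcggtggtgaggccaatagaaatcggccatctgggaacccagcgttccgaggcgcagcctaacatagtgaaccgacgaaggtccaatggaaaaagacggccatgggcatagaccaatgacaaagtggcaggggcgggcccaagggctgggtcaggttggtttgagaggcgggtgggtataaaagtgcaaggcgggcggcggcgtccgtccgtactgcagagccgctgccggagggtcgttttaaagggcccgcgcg
CRELD2 promoter (chr22:49918384-49918683, plus strand): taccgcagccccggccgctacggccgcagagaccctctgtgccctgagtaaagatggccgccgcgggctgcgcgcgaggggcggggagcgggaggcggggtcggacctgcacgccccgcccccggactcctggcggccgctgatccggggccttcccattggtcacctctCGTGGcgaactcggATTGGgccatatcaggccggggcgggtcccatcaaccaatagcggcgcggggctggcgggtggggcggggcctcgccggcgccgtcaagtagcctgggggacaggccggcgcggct
HYOU1 promoter (chr11:119057156-119057455, minus strand): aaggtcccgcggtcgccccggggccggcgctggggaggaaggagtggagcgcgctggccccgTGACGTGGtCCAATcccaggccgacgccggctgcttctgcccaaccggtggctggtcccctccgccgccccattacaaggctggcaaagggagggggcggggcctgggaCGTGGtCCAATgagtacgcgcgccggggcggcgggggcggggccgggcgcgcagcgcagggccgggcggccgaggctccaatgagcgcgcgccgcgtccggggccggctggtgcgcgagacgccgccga
SDF2L1 promoter (chr22:21642052-21642351, plus strand): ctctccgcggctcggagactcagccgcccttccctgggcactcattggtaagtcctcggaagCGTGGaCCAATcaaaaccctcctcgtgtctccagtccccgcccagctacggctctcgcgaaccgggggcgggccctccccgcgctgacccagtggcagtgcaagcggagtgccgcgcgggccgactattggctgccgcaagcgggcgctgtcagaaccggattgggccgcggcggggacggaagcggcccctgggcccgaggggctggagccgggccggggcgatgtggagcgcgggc
HERPUD1 promoter (chr16:56931892-56932191, plus strand): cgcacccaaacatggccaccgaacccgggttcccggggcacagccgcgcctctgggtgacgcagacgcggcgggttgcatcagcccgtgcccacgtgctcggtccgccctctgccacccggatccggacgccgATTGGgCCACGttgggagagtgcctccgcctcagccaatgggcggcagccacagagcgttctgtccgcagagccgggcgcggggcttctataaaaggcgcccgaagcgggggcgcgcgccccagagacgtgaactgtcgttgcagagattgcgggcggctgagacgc

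HSPA5, the main ER Hsp70 chaperone, had its single ERSE 66 to 48 bases before the start, and HSP90B1, the ER Hsp90 chaperone, had 2 in opposite orientations. HYOU1, another ER Hsp70 relative, had 2 ERSE-II matches, while SDF2L1, a partner of ER Hsp40 proteins, and HERPUD1, a membrane factor of ERAD, had 1 each. CANX and PDIA6 also held an ERSE, and DNAJC10, SEC62, SSR3, SSR4, TXNDC11 and TXNDC5 held a UPRE.

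**Figure D1:**
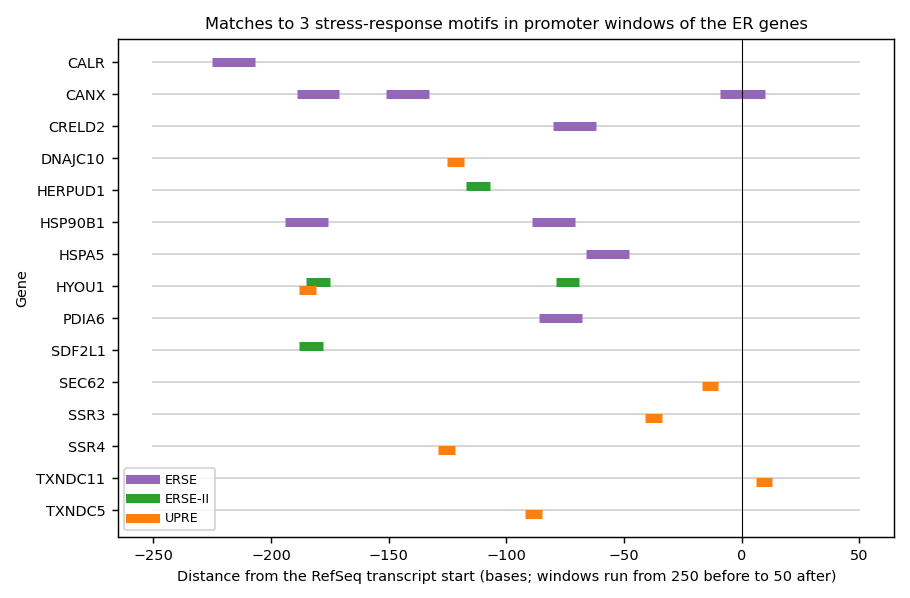
Positions of ERSE (purple), ERSE-II (green) and UPRE (orange) matches in the promoter windows of 15 ER genes, as distance in bases from the RefSeq transcript start. The 3 CANX bars are 1 genomic site seen from 3 annotated starts; HSP90B1 and HYOU1 each hold more than 1 site.

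Levels are given per library in replicate order, and log2 fold changes with their standard error (2 libraries in each group). In MM1.S they are read counts scaled to library size by the trimmed mean of M values (CPM), and in H929 they are the deposited normalised reads, so the scales of the lines must not be compared. Libraries held 20461980 to 28419331 reads in genes in MM1.S and 15926867 to 22254348 in H929. ZBP1 itself measured 22.2 and 26.3 CPM with shRNA1 and 14.8 and 18.0 CPM with shRNA2 in MM1.S, against 137.8 and 146.2 CPM with scramble. In H929, ZBP1 measured 1659 and 1888 normalised reads with shRNA1, against 4269 and 4513 in its scramble libraries, and 1229.5 and 1109.6 with shRNA2, against 3449 and 3729 in theirs. The targeted transcript was thus lower with every hairpin, with log2 fold changes of -2.55, -3.11, -1.31 and -1.62. The 6 plasma cell markers summed to 2013 to 3420 CPM in MM1.S libraries and 2974 to 3653 CPM in H929 libraries, while T cell, monocyte, fibroblast and epithelial lists summed to at most 34.9 CPM in any library. No label says whether reads were counted by strand; 33 of the 56 genes share exonic bases with some other gene in GENCODE, 28 antisense and 9 in sense, and reads of the shared bases cannot be told apart. TXNDC5 shares 2658 bases with a same-strand gene, and SPCS1 and DERL3 share 3095 and 2923 bases with antisense genes.

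With scramble, the secretory chaperones were among the most abundant of the set per kilobase of exon. In MM1.S scramble libraries HSP90B1 led with a mean of 616 CPM per kilobase, followed by CALR with 450.1, MZB1 with 326 and HSPA5 with 272. In the H929 scramble libraries for shRNA1, MZB1 led with 8114 normalised reads per kilobase, followed by HSPA5 with 7011 and CALR with 6104. CALR led in the H929 scramble libraries for shRNA2, with 8236 normalised reads per kilobase.

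Many of these genes changed in the knockdown libraries, and the directions differed between hairpins and lines, as tested further on. With shRNA2, most of the ER genes fell in both lines: 34 of 56 were lower and 1 was higher in MM1.S, and 36 were lower and 3 higher in H929. With shRNA1, 23 were lower and 3 higher in MM1.S, but in H929 20 were higher and 15 lower. The median log2 fold change of the 56 genes was -0.33 with shRNA1 and -0.52 with shRNA2 in MM1.S, and 0.10 with shRNA1 and -0.32 with shRNA2 in H929, while the medians of all genes tested lay between -0.03 and 0.00. The mitochondrial share of reads moved with the groups too: it was 11.6% and 11.7% with shRNA1 and 11.8% and 12.1% with shRNA2 in MM1.S, against 10.2% and 9.87% with scramble, and in H929 6.34% and 5.98% with shRNA1, against 7.22% and 6.63% in its scramble libraries, and 8.80% and 8.72% with shRNA2, against 7.12% and 6.84% in theirs. Its part in these changes was not tested. Genes counted as higher or lower had Benjamini-Hochberg adjusted p-values under 0.05, from edgeR's quasi-likelihood test over 17820 genes in MM1.S and from limma over 18213 genes in H929. Many genes passed the same threshold: with shRNA1 in MM1.S 37.5% of all genes were called (17.8% higher, 19.7% lower), with shRNA2 36.6% (14.9% higher, 21.7% lower), with shRNA1 in H929 53.4% (25.7% higher, 27.7% lower) and with shRNA2 in H929 43.0% (18.0% higher, 25.0% lower). Against that background, 46.4%, 62.5%, 62.5% and 69.6% of the ER genes were called in the 4 comparisons, taken in the same order.

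Of the 56 genes, 46 were lower in at least 1 of the 4 comparisons and 7 were lower in all 4: MANF, P4HB, PDIA4, SEC61B, SEC61G, SSR3 and UGGT1. No gene was higher in all 4, and 15 were higher in at least 1 comparison and lower in another. These patterns were counted for the 56 genes only. Whether they are more common among ER genes than among all genes was not tested. Shared lower calls were common over all genes tested in both lines. Of those lower in MM1.S, 66.0% with shRNA1 and 68.3% with shRNA2 were also lower in H929. CALR, PDIA6, RPN2 and SEC24D passed the threshold in all 4 comparisons, each higher with shRNA1 in H929 and lower in the other 3. MM1.S libraries that share a replicate number deviated together, and a fit with that number as a term (the blocked fit) called 6 genes higher and 40 lower for shRNA1 (82.1% of them, against 59.4% of all genes in that fit) and, for shRNA2, 6 higher and 44 lower (89.3%, against 58.8% of all genes). With the blocked calls in MM1.S, MZB1 and SSR4 joined the genes lower in all 4 comparisons, and OS9 was higher in all 4. Patterns with the blocked calls were likewise not counted over all genes. The main fit and the fits below without 1 library leave the replicate term out. Genes that miss the threshold there can pass it in the blocked fit. The 23 lower calls for shRNA1 in MM1.S became 10 without shRNA1 replicate 1 and 11 without shRNA1 replicate 2, and the 34 for shRNA2 became 19 without shRNA2 replicate 1. With higher and lower calls together, shRNA1 in MM1.S then called 19.6% of the ER genes against 22.8% of all genes without its replicate 1, and 25.0% against 26.2% without its replicate 2, so the share of ER genes called was no longer above that of all genes. For shRNA2 in MM1.S these shares were 33.9% against 18.9% without its replicate 1 and 44.6% against 20.6% without its replicate 2. Without shRNA1 replicate 1, 1 gene was higher with shRNA1 in MM1.S, and 0 were higher with shRNA2 without its replicate 1 and likewise without its replicate 2.

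The blocked fit added 17 lower calls for shRNA1 in MM1.S (ATF6B, DDOST, DERL2, DERL3, DNAJC3, EDEM2, EIF2AK3, HSPA5, HYOU1, MZB1, OSTC, SEC63, SEL1L, SIL1, SPCS3, SSR4 and TXNDC5) and 3 higher ones (DNAJC10, OS9 and SEC62). For shRNA2 it added 10 lower calls (CANX, CRELD2, EDEM2, EDEM3, HSPA5, PDIA3, SDF2L1, SEC63, SIL1 and SSR4) and 5 higher ones (ATF6B, DERL2, DNAJB9, DNAJC10 and OS9). With shRNA1 in MM1.S, the calls that held in every fit that left out 1 library were 6 of the 23 lower genes (HSP90B1, MANF, P4HB, PDIA3, PDIA4 and SPCS2) and 1 of the 3 higher (DNAJB9). With shRNA2 in MM1.S 19 of the 34 lower calls held, and the 1 higher call did not; the lower calls lost in at least 1 such fit were those of DDOST, DERL3, DNAJC3, EDEM1, ERLEC1, HYOU1, MANF, P4HB, SEC61A1, SEC61B, SEC61G, SPCS2, SSR2, TXNDC11 and TXNDC5. In H929, 15 of the 20 higher and 11 of the 15 lower calls of shRNA1 held, as did 2 of the 3 higher and 26 of the 36 lower calls of shRNA2. The H929 calls lost in at least 1 such fit were, for shRNA1, those of DNAJB11, RPN2, SDF2L1, SSR2 and TXNDC5 (higher) and HERPUD1, MANF, SSR3 and UGGT1 (lower), and for shRNA2 those of SYVN1 (higher) and CRELD2, DDOST, DNAJC3, EDEM3, HYOU1, RPN2, SEC61B, SEC61G, SPCS2 and SSR4 (lower). In these bulk libraries fewer cells of a kind and less RNA per cell cannot be told apart.

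**Figure D2:**
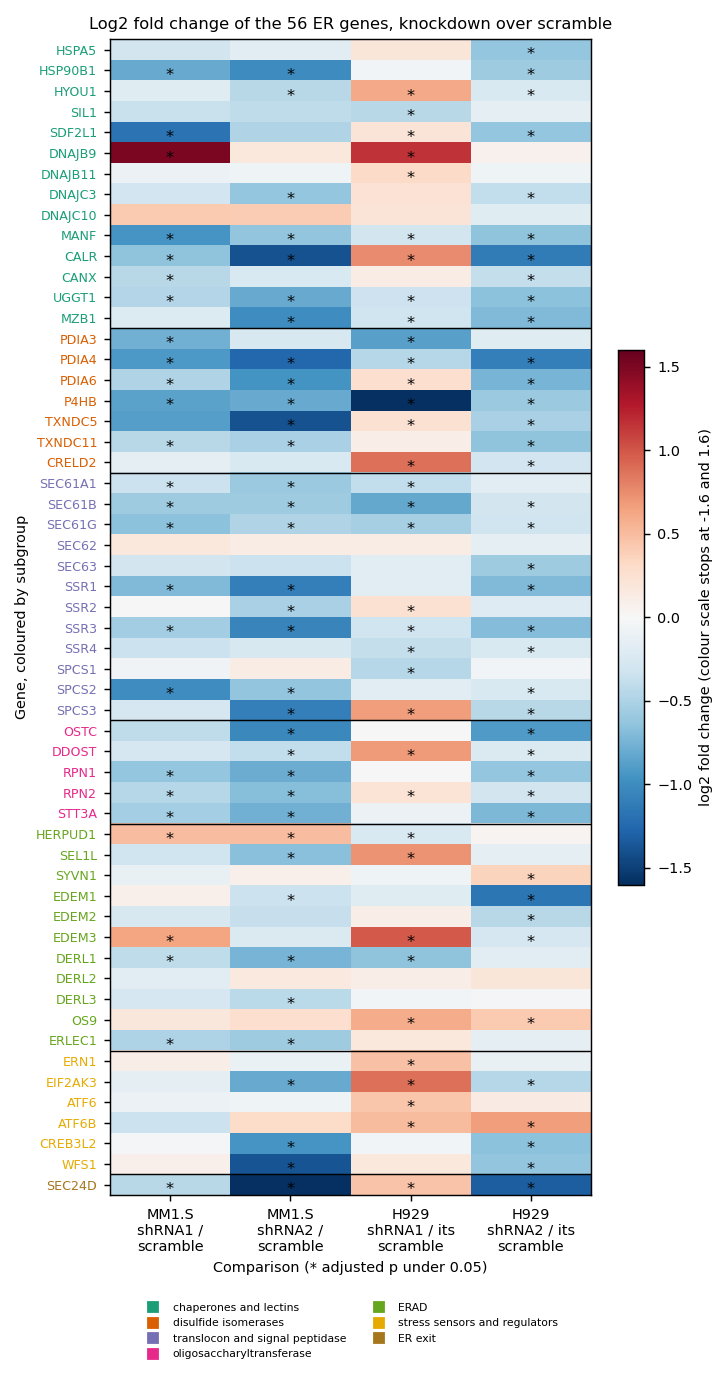
Log2 fold change of each of the 56 ER genes (rows, grouped and coloured by subgroup) in the 4 comparisons of knockdown with scramble (columns); blue is lower and red higher with knockdown, and stars mark adjusted p under 0.05. The shRNA2 columns of both lines are mostly blue (34 and 36 genes lower), and the H929 shRNA1 column is mixed (20 higher, 15 lower).

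The 2 H929 scramble groups, which carry no anti-ZBP1 hairpin, also differed for these genes. Between the scramble libraries for shRNA2 and those for shRNA1, 24 of the 56 genes were higher and 6 lower by limma, 53.6% of them against 29.9% of all genes (16.8% higher, 13.1% lower). The median difference was 0.18 on the log2 scale, and UGGT1 differed most, by 0.68 ± 0.09 (adjusted p = 4.51e-05). With any 1 of these 4 libraries left out, 13 to 18 genes were called in place of 30. Each H929 value therefore also depends on its scramble group: measured against the other scramble group, shRNA1 gave 18 genes higher and 23 lower (73.2%, against 63.8% of all genes), and shRNA2 gave 5 higher and 28 lower (58.9%, against 39.5% of all genes). The shRNA1 median of the 56 genes, 0.10 against its own scramble, was -0.05 against the other, and the shRNA2 median was -0.22. Whether the scramble groups differ by day, batch or culture is not labelled and was not tested.

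**Figure D3:**
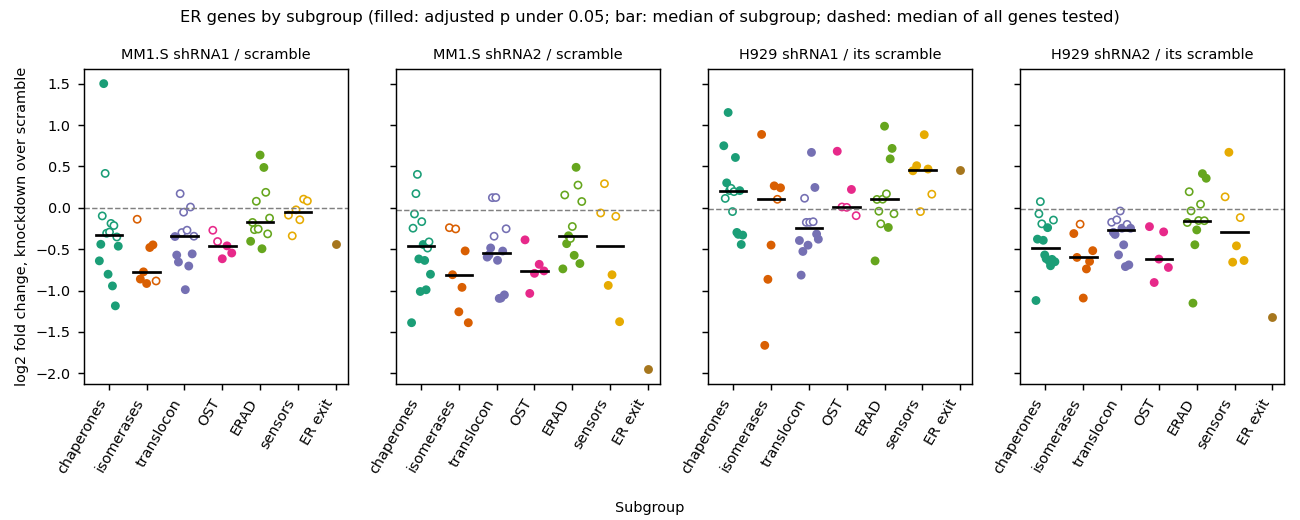
Log2 fold change of each ER gene, by subgroup, in the 4 comparisons of knockdown with scramble; filled points passed adjusted p under 0.05, bars are subgroup medians and dashed lines the medians of all genes tested. Isomerase and oligosaccharyltransferase (OST) medians lie below the dashed line in 3 panels and just above it for shRNA1 in H929.

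Among the 14 chaperones and lectins, 6 were lower and 1 higher with shRNA1 in MM1.S, 7 were lower and 0 higher with shRNA2 in MM1.S, 5 were higher and 4 lower with shRNA1 in H929, and 10 were lower and 0 higher with shRNA2 in H929. Their median log2 fold changes were -0.33 and -0.47 in MM1.S and 0.20 and -0.48 in H929, shRNA1 before shRNA2. In the same order, 50%, 50%, 64.3% and 71.4% of them were called, against 37.5%, 36.6%, 53.4% and 43.0% of all genes. HSPA5 encodes BiP, which binds unfolded chains and holds the stress sensors inactive. In MM1.S, HSPA5 measured 867.5 and 867.2 CPM with shRNA1 and 944.7 and 948.5 CPM with shRNA2, against 1064 and 1063 CPM with scramble. In H929, HSPA5 measured 30172 and 32578 normalised reads with shRNA1, against 26487 and 28309.8 in its scramble libraries, and 17643 and 16794 with shRNA2, against 26816 and 25928 in theirs. Both hairpin groups lay below scramble in MM1.S without passing the test, at log2 fold changes of -0.29 ± 0.10 (adjusted p = 0.0577) and -0.17 ± 0.10 (adjusted p = 0.241); the blocked fit gave adjusted p-values of 0.00148 and 0.0324. In H929, HSPA5 fell with shRNA2 by limma, at -0.62 ± 0.09 (adjusted p = 4.66e-05), and was above scramble with shRNA1 at 0.20 ± 0.09 (adjusted p = 0.0778), which did not pass.

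CALR encodes calreticulin, a calcium-binding lectin that retains glycoproteins until they fold. In MM1.S, CALR measured 719.5 and 846.9 CPM with shRNA1 and 437.7 and 495.0 CPM with shRNA2, against 1171 and 1273 CPM with scramble. In H929, CALR measured 27508 and 28084 normalised reads with shRNA1, against 17699 and 15431 in its scramble libraries, and 10648 and 9916 with shRNA2, against 21891 and 22815 in theirs. No knockdown library overlapped its scramble group, and the 2 H929 hairpins lay on opposite sides of theirs. By edgeR CALR fell in MM1.S by log2 fold changes of -0.64 ± 0.13 (adjusted p = 0.00708) and -1.39 ± 0.13 (adjusted p = 0.000244), and by limma it was 0.75 ± 0.09 (adjusted p = 3.94e-06) with shRNA1 and -1.12 ± 0.09 (adjusted p = 1.20e-07) with shRNA2 in H929. The shRNA1 call in MM1.S was lost without shRNA1 replicate 1 (adjusted p = 0.0783). CANX, its membrane-bound relative, fell with shRNA1 in MM1.S (-0.44) and with shRNA2 in H929 (-0.38). The MM1.S call of CANX was lost in most fits that left out 1 library. Its H929 shRNA2 value was 0.04 against the other scramble group.

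UGGT1 encodes the glucosyltransferase that tags misfolded glycoproteins for another round with these lectins. In MM1.S, UGGT1 measured 170.0 and 168.0 CPM with shRNA1 and 134.4 and 132.7 CPM with shRNA2, against 243.3 and 223.0 CPM with scramble. In H929, UGGT1 measured 2041 and 2142 normalised reads with shRNA1, against 2843 and 2429.9 in its scramble libraries, and 2705 and 2646 with shRNA2, against 4239.8 and 4171 in theirs. It fell in all 4 comparisons, by log2 fold changes of -0.46 ± 0.11 and -0.80 ± 0.11 in MM1.S (adjusted p = 0.0138 and 0.0013, edgeR) and -0.33 ± 0.09 and -0.65 ± 0.09 in H929 (adjusted p = 0.005 and 2.33e-05, limma). The shRNA1 call in MM1.S was lost in 3 of 4 fits that left out 1 library, and that in H929 without replicate 1 of the scramble for shRNA1 (adjusted p = 0.0891). Against the scramble libraries for shRNA1, the H929 shRNA2 value of UGGT1 was 0.03 (adjusted p = 0.847, limma).

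MANF, a secreted ER stress protein that acts with BiP, also fell in all 4 comparisons. In MM1.S, MANF measured 49.996 and 57.1 CPM with shRNA1 and 65.0 and 67.5 CPM with shRNA2, against 103.7 and 102.4 CPM with scramble. In H929, MANF measured 1707 and 1572 normalised reads with shRNA1, against 2113 and 1921 in its scramble libraries, and 1721 and 1659 with shRNA2, against 2577 and 2703 in theirs. All 8 knockdown libraries were below every scramble library of their comparison. The log2 fold changes were -0.94 ± 0.12 (adjusted p = 0.000779) and -0.64 ± 0.12 (adjusted p = 0.00491) in MM1.S by edgeR, and -0.30 ± 0.09 (adjusted p = 0.00877) and -0.64 ± 0.09 (adjusted p = 2.30e-05) in H929 by limma. Calls of MANF were lost without MM1.S shRNA2 replicate 1 for shRNA2 in MM1.S (adjusted p = 0.0518), and for shRNA1 in H929 in 2 of 4 fits that left out 1 library.

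DNAJB9, an ER Hsp40 protein that represses IRE1 and aids ERAD, rose most of all 56 genes with shRNA1 in both lines. In MM1.S, DNAJB9 measured 321.2 and 257.7 CPM with shRNA1 and 122.7 and 107.7 CPM with shRNA2, against 106.0 and 98.5 CPM with scramble. In H929, DNAJB9 measured 4474 and 4546 normalised reads with shRNA1, against 1892 and 2176 in its scramble libraries, and 1901 and 1644 with shRNA2, against 1776 and 1587 in theirs. The shRNA1 libraries stood apart from scramble in both lines, while the shRNA2 libraries lay just above it in MM1.S and overlapped it in H929. The log2 fold change with shRNA1 was 1.5011 ± 0.15 (adjusted p = 0.000247) in MM1.S by edgeR and 1.15 ± 0.10 (adjusted p = 7.43e-08) in H929 by limma, and both calls held with any 1 library left out. With shRNA2 it was 0.17 ± 0.14 (adjusted p = 0.386) in MM1.S, where the blocked fit gave an adjusted p of 0.0402, and 0.07 ± 0.10 (adjusted p = 0.569) in H929. Set directly against each other, shRNA2 was lower than shRNA1 in MM1.S by edgeR, at -1.33 ± 0.15 (adjusted p = 0.000522), and the hairpin effects differed in H929 by limma, at -1.08 ± 0.14 (adjusted p = 1.51e-05).

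SDF2L1 differed between its MM1.S replicates. In MM1.S, SDF2L1 measured 16.3 and 26.8 CPM with shRNA1 and 28.3 and 41.5 CPM with shRNA2, against 39.7 and 58.1 CPM with scramble. In H929, SDF2L1 measured 2204 and 2211 normalised reads with shRNA1, against 1940.3 and 1884 in its scramble libraries, and 1570.1 and 1519.6 with shRNA2, against 2269.8 and 2496 in theirs. The MM1.S shRNA2 libraries overlapped scramble as a group and the shRNA1 libraries did not. Each shRNA2 library was below the scramble library of the same replicate number. SDF2L1 fell with shRNA1 in MM1.S at -1.19 ± 0.29 (adjusted p = 0.0153) in edgeR, a call lost without shRNA1 replicate 1 (adjusted p = 0.0688), and was -0.49 ± 0.29 (adjusted p = 0.219) with shRNA2, where the blocked fit gave 0.000143. In H929 it was higher with shRNA1, at 0.21 ± 0.08 (adjusted p = 0.0472) by limma, a call lost in 4 of 4 fits that left out 1 library and at -0.11 against the other scramble group (adjusted p = 0.271). With shRNA2 in H929 it was lower, at -0.62 ± 0.08 (adjusted p = 2.09e-05).

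HSP90B1, which folds Toll-like receptors and integrins, fell in 3 of the 4 comparisons, at -0.80 and -1.01 in MM1.S and -0.57 with shRNA2 in H929, and each call held with any 1 library left out. MZB1, a plasma cell chaperone that assists antibody assembly, fell with shRNA2 in MM1.S (-0.99) and with both hairpins in H929 (-0.32 and -0.70). HYOU1 was higher with shRNA1 in H929 (0.61) and lower with shRNA2 in both lines (-0.44 in MM1.S and -0.24 in H929); the shRNA2 calls were lost in 3 of 4 and 4 of 4 fits that left out 1 library. DNAJC3, which inhibits PERK in mammals, was lower with shRNA2 in both lines (-0.62 and -0.39), DNAJB11 was higher with shRNA1 in H929 (0.30; -0.0038 against the other scramble group), and SIL1, the BiP nucleotide exchange factor, was lower there (-0.44). The DNAJC3 calls were lost in 3 of 4 fits that left out 1 library in MM1.S and 2 of 4 in H929, and the DNAJB11 call in 2 of 4. DNAJC10 passed in none of the 4 comparisons, at 0.42, 0.40, 0.21 and -0.19; the blocked fit called it higher with both hairpins in MM1.S (adjusted p = 6.83e-05 and 8.73e-05).

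**Figure D4:**
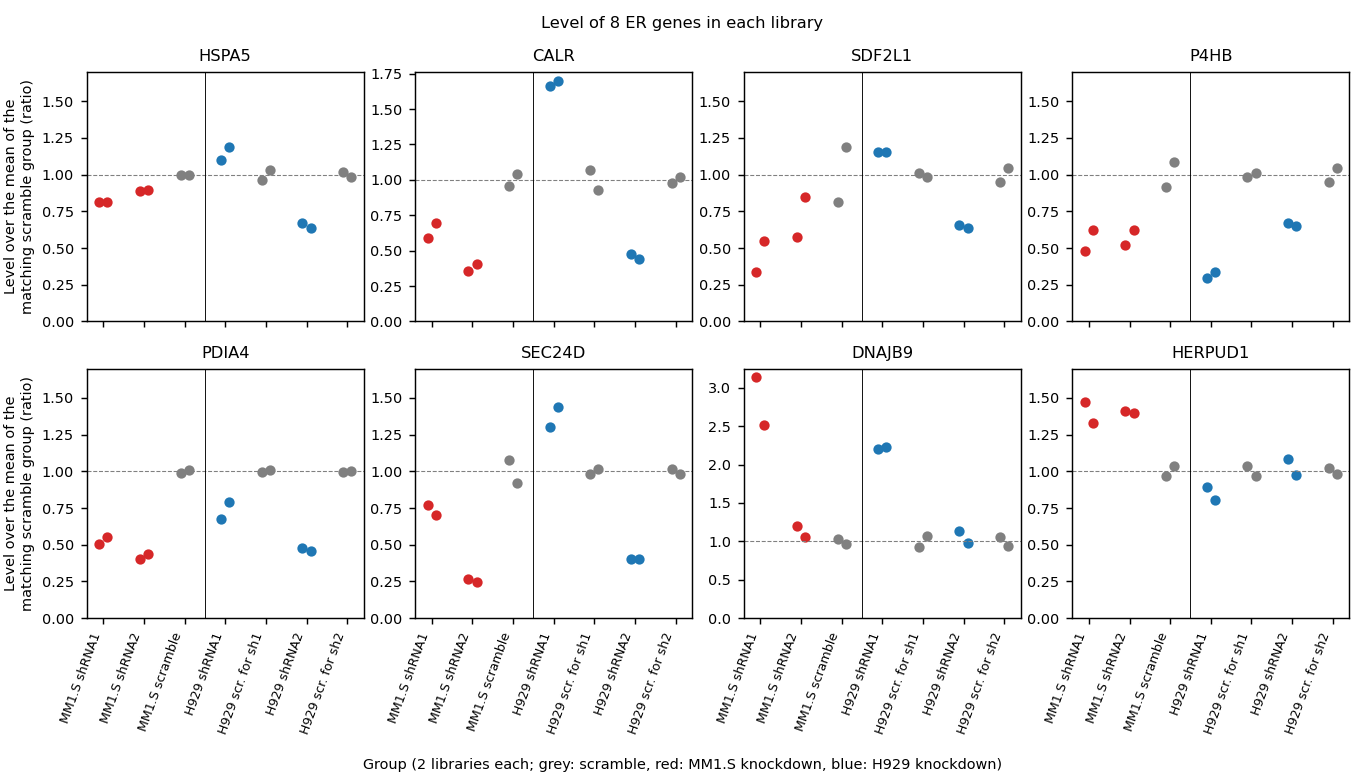
Level of 8 ER genes in each library, divided by the mean of the matching scramble group, with knockdown groups in red (MM1.S) and blue (H929) and scramble groups in grey. CALR and SEC24D lie above 1 in H929 shRNA1 and below 1 in the other knockdown groups, P4HB and PDIA4 lie below 1 in all of them, and DNAJB9 lies above 2 in the shRNA1 groups of both lines.

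The 7 disulfide isomerases and related proteins, which form and reshuffle disulfide bonds, had the lowest subgroup median with shRNA1 in MM1.S (-0.77, 5 lower, 0 higher), and a median of -0.81 with shRNA2 (5 lower, 0 higher). In H929, 3 were higher and 3 lower with shRNA1 (median 0.10), and 6 were lower and 0 higher with shRNA2 (median -0.60). In the same order, 71.4%, 71.4%, 85.7% and 85.7% of them were called, against 37.5%, 36.6%, 53.4% and 43.0% of all genes. P4HB encodes protein disulfide isomerase, also a subunit of collagen prolyl hydroxylase. In MM1.S, P4HB measured 520.4 and 680.4 CPM with shRNA1 and 567.2 and 678.0 CPM with shRNA2, against 998.1 and 1184 CPM with scramble. In H929, P4HB measured 9180.2 and 10344 normalised reads with shRNA1, against 30436 and 31289 in its scramble libraries, and 22254 and 21700.5 with shRNA2, against 31724 and 34971 in theirs. All knockdown libraries lay below scramble, and with shRNA1 in H929 P4HB had the largest change of the 56 genes in either direction. The log2 fold changes were -0.86 ± 0.17 (adjusted p = 0.00581) and -0.81 ± 0.17 (adjusted p = 0.00786) in MM1.S by edgeR, and -1.66 ± 0.09 (adjusted p = 6.24e-10) and -0.60 ± 0.09 (adjusted p = 7.96e-05) in H929 by limma. Only the shRNA2 call in MM1.S was lost when 1 library was left out, without shRNA2 replicate 1 (adjusted p = 0.0707).

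PDIA4, an isomerase with an extra thioredoxin domain, was lower in all 4 comparisons. In MM1.S, PDIA4 measured 284.0 and 308.6 CPM with shRNA1 and 223.3 and 244.0 CPM with shRNA2, against 552.1 and 565.3 CPM with scramble. In H929, PDIA4 measured 3378 and 3963 normalised reads with shRNA1, against 4967 and 5037 in its scramble libraries, and 3295 and 3174 with shRNA2, against 6859 and 6923 in theirs. Neither line showed any overlap with scramble. Its log2 fold changes were -0.92 ± 0.12 (adjusted p = 0.000766) and -1.26 ± 0.12 (adjusted p = 0.000206) in MM1.S by edgeR and -0.45 ± 0.09 (adjusted p = 0.000395) and -1.09 ± 0.09 (adjusted p = 1.00e-07) in H929 by limma, and all 4 calls held with any 1 library left out. PDIA6 limits signalling by the stress sensors. In MM1.S, PDIA6 measured 289.2 and 304.2 CPM with shRNA1 and 204.7 and 220.3 CPM with shRNA2, against 416.9 and 410.9 CPM with scramble. In H929, PDIA6 measured 4049.8 and 4241 normalised reads with shRNA1, against 3413 and 3484 in its scramble libraries, and 2605 and 2581 with shRNA2, against 4345 and 4312 in theirs. It lay below scramble in MM1.S and with shRNA2 in H929, and above it with shRNA1 in H929. Log2 fold changes of PDIA6 were -0.48 ± 0.11 (adjusted p = 0.0118) and -0.96 ± 0.11 (adjusted p = 0.000569) in MM1.S by edgeR and 0.27 ± 0.08 (adjusted p = 0.0091) and -0.74 ± 0.08 (adjusted p = 1.78e-06) in H929 by limma. The shRNA1 call of PDIA6 in MM1.S was lost without replicate 1 of shRNA1 and also without replicate 2 (adjusted p = 0.12 and 0.0696), and against the other H929 scramble group the shRNA1 value was -0.06 (adjusted p = 0.498).

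PDIA3, which works with calreticulin and calnexin on glycoproteins, fell with shRNA1 in both lines. In MM1.S, PDIA3 measured 219.3 and 199.1 CPM with shRNA1 and 311.6 and 287.9 CPM with shRNA2, against 396.3 and 319.4 CPM with scramble. In H929, PDIA3 measured 2704 and 3604 normalised reads with shRNA1, against 5770.3 and 5602 in its scramble libraries, and 6087 and 6067 with shRNA2, against 7341 and 6619 in theirs. With shRNA1 the log2 fold changes were -0.77 ± 0.14 (adjusted p = 0.00404) in MM1.S by edgeR and -0.86 ± 0.11 (adjusted p = 6.07e-06) in H929 by limma, and with shRNA2 they were -0.26 ± 0.14 (adjusted p = 0.188) and -0.20 ± 0.11 (adjusted p = 0.159). Only the blocked fit called the shRNA2 value in MM1.S (adjusted p = 0.00585). The hairpins differed directly, with shRNA2 above shRNA1 by 0.52 ± 0.14 (adjusted p = 0.0224) in MM1.S and an effect difference of 0.67 ± 0.16 (adjusted p = 0.00258) in H929; the MM1.S call was lost in 4 of 4 fits that left out 1 library. TXNDC5, a thioredoxin-domain protein abundant in plasma cells, varied between MM1.S replicates. In MM1.S, TXNDC5 measured 174.4 and 322.0 CPM with shRNA1 and 122.7 and 227.0 CPM with shRNA2, against 341.7 and 574.4 CPM with scramble. In H929, TXNDC5 measured 16512 and 14027 normalised reads with shRNA1, against 12890.2 and 12854 in its scramble libraries, and 7348 and 6788 with shRNA2, against 10364 and 9872 in theirs. Replicate 2 was above replicate 1 in each MM1.S group, and the shRNA1 and scramble groups came close without overlapping. By edgeR TXNDC5 was -0.88 ± 0.38 (adjusted p = 0.105) with shRNA1, not passing, and -1.39 ± 0.39 (adjusted p = 0.0251) with shRNA2, and the blocked fit gave 3.06e-07 for shRNA1. With scramble replicate 2 left out the shRNA2 value did not pass (adjusted p = 0.08), nor did it with shRNA2 replicate 1 left out (adjusted p = 0.132). In H929 it was 0.24 ± 0.09 (adjusted p = 0.0365) with shRNA1, lost in 3 of 4 fits that left out 1 library, and -0.52 ± 0.09 (adjusted p = 0.00029) with shRNA2, by limma. CRELD2 rose with shRNA1 in H929 (0.89) and fell there with shRNA2 (-0.31, lost in 3 of 4 fits without 1 library), and TXNDC11 fell in both MM1.S comparisons and with shRNA2 in H929 (-0.45, -0.52 and -0.65), the MM1.S calls being lost in 2 of 4 and 2 of 4 such fits.

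Of the 12 genes of the translocon and signal peptidase, 6 and 8 were lower in MM1.S with shRNA1 and shRNA2 and 0 higher with either, and in H929 6 were lower and 2 higher with shRNA1 and 8 lower and 0 higher with shRNA2. The medians were -0.35, -0.55, -0.25 and -0.27, and this was the subgroup with the lowest median for shRNA1 in H929. In the same order, 50%, 66.7%, 66.7% and 66.7% of them were called, against 37.5%, 36.6%, 53.4% and 43.0% of all genes. SEC61B and SEC61G encode the small subunits of the Sec61 channel. In MM1.S, SEC61B measured 108.4 and 105.0 CPM with shRNA1 and 105.1 and 108.5 CPM with shRNA2, against 161.6 and 155.5 CPM with scramble. In H929, SEC61B measured 1296 and 1323 normalised reads with shRNA1, against 2319 and 2288 in its scramble libraries, and 2276 and 2141 with shRNA2, against 2609.6 and 2818 in theirs. Every knockdown library of SEC61B was below its scramble libraries. SEC61B fell, at -0.57 ± 0.11 (adjusted p = 0.00517) and -0.57 ± 0.11 (adjusted p = 0.00548) in MM1.S by edgeR, and at -0.81 ± 0.08 (adjusted p = 5.52e-07) and -0.30 ± 0.08 (adjusted p = 0.00905) in H929 by limma. In MM1.S, SEC61G measured 97.6 and 85.5 CPM with shRNA1 and 107.5 and 98.6 CPM with shRNA2, against 147.1 and 141.5 CPM with scramble. In H929, SEC61G measured 774.7 and 928.9 normalised reads with shRNA1, against 1140.4 and 1312 in its scramble libraries, and 1373 and 1288 with shRNA2, against 1709.5 and 1618 in theirs. SEC61G showed no overlap either, with -0.66 ± 0.12 (adjusted p = 0.00465) and -0.49 ± 0.12 (adjusted p = 0.0171) in MM1.S by edgeR, and -0.53 ± 0.10 (adjusted p = 0.000472) and -0.32 ± 0.10 (adjusted p = 0.0204) in H929 by limma. Against the scramble libraries for shRNA1, the H929 shRNA2 value of SEC61G was 0.12 (adjusted p = 0.392). Of their 8 calls, those of both genes for shRNA1 in H929 held with any 1 library left out, and the other 6 were each lost in at least 1 such fit. SEC61A1, the channel subunit itself, fell with both hairpins in MM1.S (-0.35 and -0.60) and with shRNA1 in H929 (-0.40). Its shRNA1 call in MM1.S was lost in every fit that left out 1 library, and its shRNA2 call there in 1 such fit.

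SSR3 is a subunit of the translocon-associated protein complex. In MM1.S, SSR3 measured 550.0 and 464.9 CPM with shRNA1 and 376.8 and 343.1 CPM with shRNA2, against 827.0 and 666.5 CPM with scramble. In H929, SSR3 measured 6020.1 and 7139 normalised reads with shRNA1, against 7896 and 8449.6 in its scramble libraries, and 4779 and 4814 with shRNA2, against 7966 and 7521 in theirs. The groups did not overlap in any comparison. SSR3 fell, at -0.56 ± 0.15 (adjusted p = 0.0209) and -1.05 ± 0.15 (adjusted p = 0.00142) in MM1.S by edgeR and at -0.32 ± 0.09 (adjusted p = 0.00794) and -0.69 ± 0.09 (adjusted p = 1.82e-05) in H929 by limma. The shRNA1 calls of SSR3 were lost in 2 of 4 fits without 1 library in MM1.S and 2 of 4 in H929. Its partner SSR1 fell in MM1.S with both hairpins (-0.70 and -1.09) and with shRNA2 in H929 (-0.71), SSR2 was lower with shRNA2 in MM1.S (-0.52) and higher with shRNA1 in H929 (0.25), and SSR4 was lower with both hairpins in H929 (-0.38 and -0.25). Both SSR2 calls were lost in 2 of 4 fits without 1 library, the SSR4 call for shRNA2 in 3 of 4 and the SSR1 call for shRNA1 in MM1.S in 1 of 4. SEC63, a partner of BiP at the channel, fell with shRNA2 in H929 (-0.57), and SEC62 passed in none of the 4 comparisons, at 0.17, 0.12, 0.12 and -0.15, though the blocked fit called it higher with shRNA1 in MM1.S (adjusted p = 0.0405).

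SPCS1, SPCS2 and SPCS3, subunits that serve the enzyme that cuts signal peptides, did not move as 1 unit. The subunits SEC11A and SEC11C belong to the other genes of the pathway, and their values are not given here. In MM1.S, SPCS2 measured 126.6 and 128.0 CPM with shRNA1 and 160.1 and 165.6 CPM with shRNA2, against 272.8 and 233.0 CPM with scramble. In H929, SPCS2 measured 1856 and 1818 normalised reads with shRNA1, against 2095 and 2055 in its scramble libraries, and 2134 and 2000.2 with shRNA2, against 2488 and 2417 in theirs. SPCS2 fell with shRNA1 and shRNA2 in MM1.S, at -0.99 ± 0.12 (adjusted p = 0.000721) and -0.63 ± 0.12 (adjusted p = 0.00558) in edgeR, and with shRNA2 in H929, at -0.25 ± 0.08 (adjusted p = 0.0223) in limma. The shRNA2 call was lost in MM1.S without shRNA2 replicate 1 (adjusted p = 0.0563) and in H929 in 3 of 4 fits without 1 library, and shRNA1 in H929 gave -0.18 ± 0.08 (adjusted p = 0.0809). In MM1.S, SPCS3 measured 339.8 and 280.3 CPM with shRNA1 and 184.9 and 165.3 CPM with shRNA2, against 412.3 and 336.0 CPM with scramble. In H929, SPCS3 measured 6574 and 7312 normalised reads with shRNA1, against 4472 and 4247 in its scramble libraries, and 3876 and 3846 with shRNA2, against 5484 and 5057 in theirs. SPCS3 libraries were below scramble with shRNA2 in both lines and above it with shRNA1 in H929, while 1 MM1.S shRNA1 library overlapped scramble. Each MM1.S shRNA1 library was below the scramble library of the same replicate number. Its log2 fold changes were -0.27 ± 0.15 (adjusted p = 0.199) and -1.10 ± 0.15 (adjusted p = 0.00136) in MM1.S by edgeR, and 0.67 ± 0.09 (adjusted p = 6.04e-06) and -0.45 ± 0.09 (adjusted p = 0.000516) in H929 by limma. The blocked fit called the shRNA1 value of SPCS3 in MM1.S (adjusted p = 0.00211). SPCS1 passed only with shRNA1 in H929 (-0.45), with -0.05, 0.12 and -0.04 elsewhere.

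The 5 listed subunits of the oligosaccharyltransferase, which attaches N-linked sugars, were all lower with shRNA2 in both lines. Their medians were -0.76 in MM1.S and -0.62 in H929. With shRNA1, 3 of 5 were lower in MM1.S (median -0.46, 0 higher), and 2 were higher and 0 lower in H929 (median 0.01). In all, 60% were called with shRNA1 in MM1.S and 40% in H929, against 37.5% and 53.4% of all genes. With shRNA2 it was 100% in both lines, against 36.6% and 43.0%. The complex has further subunits outside this list. Of 12 other genes of the complex and of sugar trimming, 5 of 11 tested were lower with shRNA2 in MM1.S, and 0 higher. In H929, 7 of the 12 were lower with shRNA2 and 0 higher. RPN2, a structural subunit, passed in all 4 comparisons. In MM1.S, RPN2 measured 381.5 and 418.4 CPM with shRNA1 and 331.4 and 353.9 CPM with shRNA2, against 555.4 and 545.1 CPM with scramble. In H929, RPN2 measured 10902 and 11414 normalised reads with shRNA1, against 9748 and 9387 in its scramble libraries, and 10488 and 9922 with shRNA2, against 12807 and 12166 in theirs. Its groups did not overlap in any comparison, with log2 fold changes of -0.46 ± 0.11 (adjusted p = 0.0153) and -0.68 ± 0.11 (adjusted p = 0.00289) in MM1.S by edgeR and 0.22 ± 0.08 (adjusted p = 0.0322) and -0.29 ± 0.08 (adjusted p = 0.00948) in H929 by limma. Its calls were lost in 2 of 4 fits without 1 library for shRNA1 in MM1.S, 3 of 4 for shRNA1 in H929 and 2 of 4 for shRNA2 in H929. Against the other scramble group, both H929 values of RPN2 changed sign, to -0.16 for shRNA1 (adjusted p = 0.0963) and 0.09 for shRNA2 (adjusted p = 0.402). RPN1, its partner, fell, at -0.62 and -0.79 in MM1.S and -0.62 with shRNA2 in H929, and the catalytic subunit STT3A at -0.55, -0.76 and -0.72. OSTC fell most of the 5 with shRNA2, at -1.04 in MM1.S and -0.90 in H929. DDOST was higher with shRNA1 in H929 (0.68) and lower with shRNA2 in both lines (-0.39 and -0.23); the shRNA2 calls were lost in 4 of 4 and 4 of 4 fits without 1 library. The blocked fit added DDOST and OSTC to the lower calls for shRNA1 in MM1.S (adjusted p = 0.00203 and 4.88e-05).

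The 11 ERAD factors moved in both directions and had the medians nearest to that of all genes among the multi-gene subgroups with shRNA2 in both lines (-0.34 in MM1.S and -0.15 in H929). In MM1.S, 2 were higher and 2 lower with shRNA1, and 1 was higher and 5 lower with shRNA2, and in H929, 3 were higher and 2 lower with shRNA1, and 2 were higher and 3 lower with shRNA2. In the same order, 36.4%, 54.5%, 45.5% and 45.5% of them were called, against 37.5%, 36.6%, 53.4% and 43.0% of all genes. Only for shRNA2 in MM1.S was the ERAD share well above that of all genes. HERPUD1, which gathers ERAD components around the ubiquitin ligase, was the single gene higher with both hairpins in MM1.S in the unblocked fit, and the blocked fit called DNAJB9, DNAJC10 and OS9 higher with both as well. In MM1.S, HERPUD1 measured 898.8 and 813.2 CPM with shRNA1 and 861.7 and 852.3 CPM with shRNA2, against 589.9 and 631.1 CPM with scramble. In H929, HERPUD1 measured 14922 and 13476 normalised reads with shRNA1, against 17283 and 16177 in its scramble libraries, and 14392 and 12961 with shRNA2, against 13533 and 12983 in theirs. MM1.S knockdown libraries were all above scramble, and H929 shRNA1 libraries were below theirs. HERPUD1 rose by 0.49 ± 0.11 (adjusted p = 0.012) and 0.49 ± 0.11 (adjusted p = 0.0122) in MM1.S by edgeR, calls lost without shRNA1 replicate 1 (adjusted p = 0.0781) and, for shRNA2, without its replicate 1 and also without its replicate 2 (adjusted p = 0.0831 and 0.0716). In H929 it was -0.24 ± 0.09 (adjusted p = 0.0366) with shRNA1 and 0.04 ± 0.09 (adjusted p = 0.729) with shRNA2 by limma, and 0.10 and -0.29 against the other scramble group (adjusted p = 0.362 and 0.0178).

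The EDEM lectins, which pick glycoproteins for degradation, differed among themselves. In MM1.S, EDEM1 measured 626.4 and 591.6 CPM with shRNA1 and 473.0 and 439.2 CPM with shRNA2, against 596.6 and 556.6 CPM with scramble. In H929, EDEM1 measured 7132 and 5537 normalised reads with shRNA1, against 7098 and 7275 in its scramble libraries, and 3599 and 3712 with shRNA2, against 8788 and 7518 in theirs. EDEM1 libraries with shRNA2 were below scramble in both lines, and those with shRNA1 overlapped it in both. In MM1.S each shRNA1 library was above the scramble library of the same replicate number. EDEM1 fell with shRNA2 at -0.34 ± 0.11 (adjusted p = 0.0494) in MM1.S by edgeR, a call lost in 4 of 4 fits without 1 library, and at -1.15 ± 0.11 (adjusted p = 5.37e-07) in H929 by limma, and was 0.08 ± 0.11 (adjusted p = 0.616) and -0.19 ± 0.11 (adjusted p = 0.147) with shRNA1. In MM1.S, EDEM3 measured 518.7 and 398.2 CPM with shRNA1 and 276.0 and 227.9 CPM with shRNA2, against 335.0 and 254.5 CPM with scramble. In H929, EDEM3 measured 14243 and 15190.0 normalised reads with shRNA1, against 7440.1 and 7407 in its scramble libraries, and 7478 and 7489.8 with shRNA2, against 9109 and 8909 in theirs. EDEM3 was above scramble with shRNA1 in both lines. With shRNA1, EDEM3 rose by 0.64 ± 0.19 (adjusted p = 0.0306) in MM1.S by edgeR, a call that failed on leaving out replicate 2 of scramble (adjusted p = 0.122) and on leaving out replicate 1 of shRNA1 (adjusted p = 0.145), and by 0.99 ± 0.08 (adjusted p = 4.22e-08) in H929 by limma. With shRNA2 it was -0.23 ± 0.19 (adjusted p = 0.377) in MM1.S, where the blocked fit gave 0.00779, and -0.27 ± 0.08 (adjusted p = 0.0131) in H929, where the call was lost in 3 of 4 fits without 1 library and the value was 0.01 against the other scramble group (adjusted p = 0.924). EDEM2 fell with shRNA2 in H929 (-0.45), with -0.26 and -0.37 in MM1.S, where the blocked fit called both lower (adjusted p = 0.031 and 0.00496), and 0.10 with shRNA1 in H929.

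OS9, a lectin that hands substrates to the ERAD ligase, was higher with both hairpins in H929. In MM1.S, OS9 measured 237.2 and 264.9 CPM with shRNA1 and 259.2 and 274.2 CPM with shRNA2, against 213.6 and 227.4 CPM with scramble. In H929, OS9 measured 5172 and 5646 normalised reads with shRNA1, against 3528 and 3644 in its scramble libraries, and 4279.7 and 4205 with shRNA2, against 3218 and 3155 in theirs. No H929 knockdown library overlapped scramble, and the MM1.S shRNA1 and shRNA2 libraries were also above theirs. OS9 rose by 0.59 ± 0.08 (adjusted p = 1.28e-05) and 0.41 ± 0.08 (adjusted p = 0.000655) in H929 by limma, and was 0.19 ± 0.12 (adjusted p = 0.246) and 0.27 ± 0.12 (adjusted p = 0.104) in MM1.S by edgeR, where the blocked fit gave adjusted p-values of 0.0134 and 0.00135. SEL1L, the adaptor of the ligase, rose with shRNA1 in H929 (0.72) and fell with shRNA2 in MM1.S (-0.67), and SYVN1, the ligase HRD1, rose only with shRNA2 in H929 (0.36). DERL1, a channel protein of retrotranslocation, fell with both hairpins in MM1.S (-0.40 and -0.74) and with shRNA1 in H929 (-0.64). ERLEC1 fell with both hairpins in MM1.S (-0.50 and -0.57), and DERL3 with shRNA2 in MM1.S (-0.43). Most fits that left out 1 library lost these calls, and likewise the DERL1 call for shRNA1 in MM1.S. DERL2 passed in no comparison with scramble, at -0.18, 0.15, 0.10 and 0.19. The blocked fit called DERL2 lower with shRNA1 and higher with shRNA2 in MM1.S (adjusted p = 0.0297 and 0.0438).

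Of the 6 stress sensors and regulators, 0 passed with shRNA1 in MM1.S by edgeR, where 1 (ATF6B) had an unadjusted p under 0.05; DESeq2 and limma likewise called 0, with 1 (ATF6B) at an unadjusted p under 0.05, while the blocked fit called EIF2AK3 and ATF6B lower. With shRNA2 in MM1.S 3 were lower and 0 higher. In H929, 4 were higher and 0 lower with shRNA1, and 1 was higher and 3 lower with shRNA2. In the same order, 0%, 50%, 66.7% and 66.7% of the 6 were called, against 37.5%, 36.6%, 53.4% and 43.0% of all genes. ERN1 encodes IRE1, the kinase and nuclease that splices XBP1 mRNA. In MM1.S, ERN1 measured 424.4 and 450.9 CPM with shRNA1 and 367.5 and 390.2 CPM with shRNA2, against 363.6 and 450.4 CPM with scramble. In H929, ERN1 measured 11217 and 8751 normalised reads with shRNA1, against 7276 and 7045 in its scramble libraries, and 5254 and 5052 with shRNA2, against 5619.8 and 5565 in theirs. The MM1.S groups overlapped, and H929 shRNA1 libraries were above scramble, at 0.47 ± 0.10 (adjusted p = 0.000949) by limma. ERN1 was 0.10 ± 0.13 (adjusted p = 0.575) and -0.10 ± 0.14 (adjusted p = 0.581) in MM1.S by edgeR and -0.12 ± 0.10 (adjusted p = 0.364) with shRNA2 in H929.

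EIF2AK3 encodes PERK, the kinase that slows translation under ER stress. In MM1.S, EIF2AK3 measured 105.3 and 96.0 CPM with shRNA1 and 64.8 and 62.2 CPM with shRNA2, against 116.6 and 106.0 CPM with scramble. In H929, EIF2AK3 measured 12225 and 10650.2 normalised reads with shRNA1, against 6323 and 6046 in its scramble libraries, and 4247 and 4221 with shRNA2, against 5896 and 5753 in theirs. With shRNA2 it was below scramble in both lines, and with shRNA1 it was above scramble in H929 and just below it in MM1.S. EIF2AK3 was -0.14 ± 0.12 (adjusted p = 0.367) with shRNA1 and -0.81 ± 0.12 (adjusted p = 0.00163) with shRNA2 in MM1.S by edgeR, and the blocked fit gave 0.0334 for shRNA1. In H929 it rose by 0.88 ± 0.09 (adjusted p = 2.99e-07) with shRNA1 and fell, at -0.46 ± 0.09 (adjusted p = 0.000437) with shRNA2 by limma, and the hairpin effects differed by -1.34 ± 0.12 (adjusted p = 3.96e-07). ATF6 encodes the sensor that is cut in the Golgi to free a transcription factor. In MM1.S, ATF6 measured 216.9 and 181.9 CPM with shRNA1 and 205.6 and 200.5 CPM with shRNA2, against 244.3 and 179.8 CPM with scramble. In H929, ATF6 measured 3879 and 4157 normalised reads with shRNA1, against 2899 and 2991 in its scramble libraries, and 3287 and 3072 with shRNA2, against 2852 and 2946 in theirs. Its MM1.S groups overlapped, at -0.09 ± 0.17 (adjusted p = 0.707) and -0.06 ± 0.17 (adjusted p = 0.794), and in H929 it rose with shRNA1, by 0.45 ± 0.08 (adjusted p = 0.000231) in limma, and was 0.13 ± 0.08 (adjusted p = 0.205) with shRNA2.

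ATF6B, the paralogue of ATF6, rose most of the 56 genes with shRNA2 in H929. In MM1.S, ATF6B measured 132.6 and 160.5 CPM with shRNA1 and 215.8 and 238.0 CPM with shRNA2, against 174.7 and 196.0 CPM with scramble. In H929, ATF6B measured 2745 and 2239 normalised reads with shRNA1, against 1757 and 1727 in its scramble libraries, and 2574 and 2337 with shRNA2, against 1486 and 1597 in theirs. Both H929 hairpin groups lay above scramble, and the MM1.S hairpins lay on opposite sides of it. ATF6B rose by 0.51 ± 0.10 (adjusted p = 0.000439) and 0.67 ± 0.10 (adjusted p = 5.70e-05) in H929 by limma, and was -0.34 ± 0.14 (adjusted p = 0.0899) and 0.29 ± 0.14 (adjusted p = 0.136) in MM1.S by edgeR, where the blocked fit called shRNA1 lower (adjusted p = 0.000376) and shRNA2 higher (adjusted p = 0.00109). WFS1, an ER membrane protein that restrains ATF6, fell with shRNA2. In MM1.S, WFS1 measured 71.5 and 102.9 CPM with shRNA1 and 27.8 and 35.6 CPM with shRNA2, against 70.7 and 93.9 CPM with scramble. In H929, WFS1 measured 3557 and 3366 normalised reads with shRNA1, against 2851 and 3343 in its scramble libraries, and 1483 and 1360.3 with shRNA2, against 2144 and 2278 in theirs. The shRNA2 libraries were below every scramble library in both lines, and the shRNA1 libraries were not. WFS1 was -1.38 ± 0.22 (adjusted p = 0.00254) with shRNA2 in MM1.S by edgeR and -0.64 ± 0.09 (adjusted p = 4.91e-05) in H929 by limma, and with shRNA1 0.08 ± 0.22 (adjusted p = 0.789) and 0.16 ± 0.09 (adjusted p = 0.151). CREB3L2, a membrane-bound transcription factor of the secretory pathway, fell with shRNA2 in both lines (-0.94 and -0.66) and was -0.02 and -0.05 with shRNA1.

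SEC24D, a COPII coat protein that selects cargo leaving the ER, fell most of the 56 genes with shRNA2 in both lines. In MM1.S, SEC24D measured 89.9 and 81.4 CPM with shRNA1 and 31.3 and 28.8 CPM with shRNA2, against 125.5 and 107.2 CPM with scramble. In H929, SEC24D measured 2717 and 2990.3 normalised reads with shRNA1, against 2046 and 2117 in its scramble libraries, and 843.5 and 843.7 with shRNA2, against 2151 and 2069.9 in theirs. The shRNA2 libraries held less than the lowest scramble library in both lines, and the H929 shRNA1 libraries lay above theirs. SEC24D was -0.44 ± 0.13 (adjusted p = 0.0304) and -1.95 ± 0.14 (adjusted p = 6.09e-05) in MM1.S by edgeR, and 0.45 ± 0.08 (adjusted p = 0.000283) and -1.32 ± 0.08 (adjusted p = 1.08e-08) in H929 by limma. Its shRNA1 call in MM1.S was lost in 3 of 4 fits without 1 library (adjusted p up to 0.214), and the other 3 calls held.

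The hairpins were also set against each other within each line. In MM1.S, 17 of the 56 genes were lower and 2 higher with shRNA2 than with shRNA1 (33.9%, against 36.8% of all genes, 16.4% higher and 20.4% lower), so the share called was near that of all genes; DESeq2 called 14 lower and 4 higher. The lower genes included SEC24D (-1.51), WFS1 (-1.46), DNAJB9 (-1.33) and CREB3L2 (-0.91), and the 2 higher were PDIA3 and ATF6B (0.52 and 0.63). The blocked fit called 39 genes in this comparison (69.6%, against 58.2% of all genes). Without shRNA1 replicate 1, 8 were called (14.3%, against 22.6% of all genes), as were 8 without shRNA2 replicate 2 (14.3%, against 19.5%), and 10 were called without shRNA2 replicate 1 (17.9%, against 20.2%). SEC24D, WFS1, DNAJB9 and CREB3L2 were called with any 1 library left out, and neither PDIA3 nor ATF6B was. In H929 the effect of shRNA2 was lower than that of shRNA1 for 37 genes and higher for 6 (76.8%, against 41.8% of all genes, 20.0% higher and 21.9% lower), with a median difference of -0.50. The greatest differences were in CALR, at -1.87 ± 0.13 (adjusted p = 3.15e-08), and SEC24D, at -1.78 ± 0.12 (adjusted p = 2.61e-08), and P4HB differed most the other way, at 1.06 ± 0.13 (adjusted p = 9.33e-06), all by limma. Each effect is taken against its own scramble group, so the difference between the scramble groups (median 0.18) enters these values too. A gene higher in the scramble libraries for shRNA2 gets a lower value here. CALR held 8236 normalised reads per kilobase in those libraries and 6104 in the scramble libraries for shRNA1, and SEC24D held 213 and 210.

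The H929 hairpin comparisons share no library. Of the 15 genes lower with shRNA1 in H929, 9 (60%) were among the 36 lower with shRNA2 (25% of these): MANF, MZB1, P4HB, PDIA4, SEC61B, SEC61G, SSR3, SSR4 and UGGT1. Of all 56 genes 64.3% were lower with shRNA2, so this share is near that of the whole set, and over all 18213 genes tested 41.7% of those lower with shRNA1 were lower with shRNA2. ATF6B and OS9 were the 2 genes higher with both. Another 12 genes were higher with shRNA1 and lower with shRNA2: CALR, CRELD2, DDOST, EDEM3, EIF2AK3, HYOU1, PDIA6, RPN2, SDF2L1, SEC24D, SPCS3 and TXNDC5. These are 21.4% of the 56, against 5.22% of all genes tested. Of the 12, PDIA6, RPN2 and SDF2L1 changed sign for shRNA1, and EDEM3, HYOU1 and RPN2 for shRNA2, when measured against the other scramble group. None passed in the reverse pattern, lower with shRNA1 and higher with shRNA2, as 2.76% of all genes did.

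**Figure D5:**
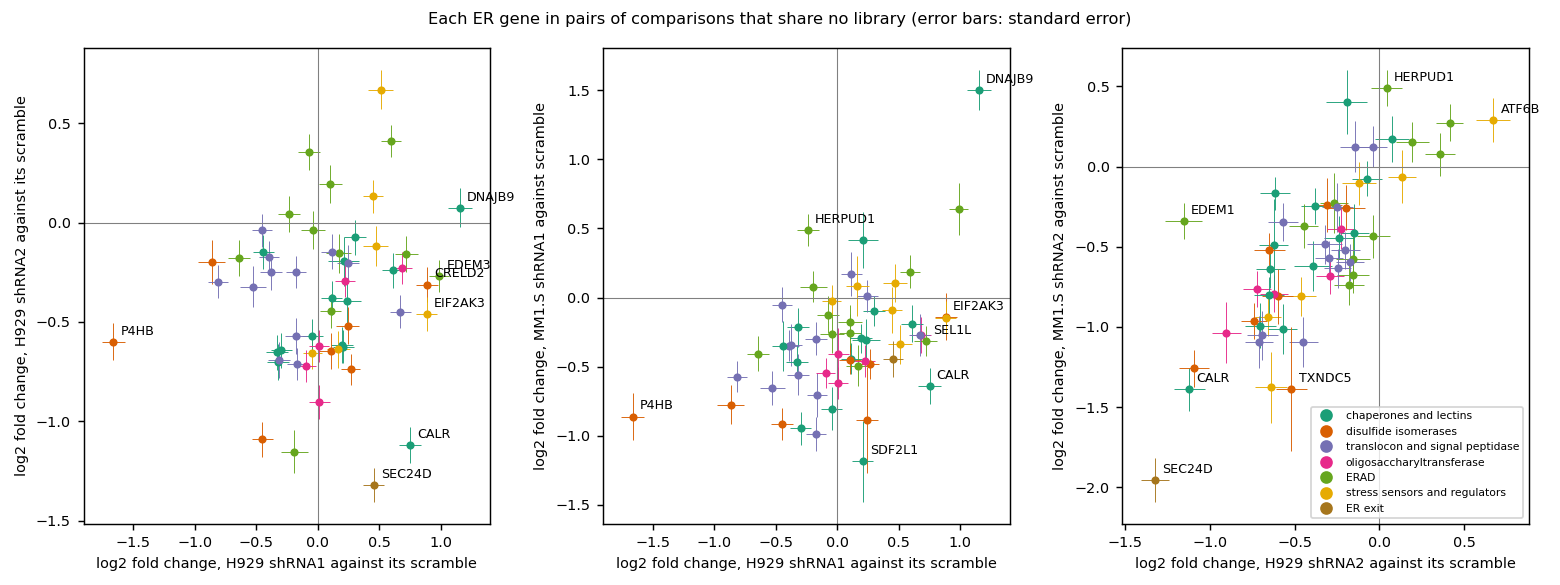
Log2 fold change of each ER gene in 3 pairs of comparisons that share no library, with standard errors as bars and colours for subgroups. In the left panel CALR and SEC24D lie right of 0 and below 0 (higher with shRNA1, lower with shRNA2 in H929), and in the right panel most points lie at the lower left, where shRNA2 is below scramble in both lines.

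Calls were also compared between the lines, which share no library. Of the 34 genes lower with shRNA2 in MM1.S, 28 (82.4%) were among the 36 lower in H929 (77.8%), and 0 were called in opposite directions. Among the 15761 genes tested in both lines, 68.3% of those lower with shRNA2 in MM1.S were lower in H929 (57.2% of those lower there), and 0.958% were called in opposite directions. For shRNA1, 10 of the 23 lower in MM1.S (43.5%) were among the 15 lower in H929 (66.7%), DNAJB9 and EDEM3 were higher in both, and 6 were called in opposite directions (CALR, HERPUD1, PDIA6, RPN2, SDF2L1 and SEC24D; 10.7% of the 56). Over all genes tested in both lines, 66.0% of those lower with shRNA1 in MM1.S were lower in H929 (47.5% of those lower there), and 2.87% were called in opposite directions. For HERPUD1, PDIA6, RPN2 and SDF2L1 the H929 value took the sign of the MM1.S value when measured against the other scramble group. The test of the difference itself, in limma over all 14 libraries and 20370 genes, called 27 of the 56 for shRNA1 (25 lower and 2 higher in MM1.S than in H929; 48.2%, against 21.4% of all genes, 10.4% higher and 11.0% lower) and 6 for shRNA2 (4 lower, 2 higher; 10.7%, against 9.75% of all genes, 4.34% higher and 5.41% lower). For shRNA1 the effect was lower in MM1.S for SDF2L1 (-1.41 ± 0.31 (adjusted p = 0.00676)), CALR (-1.40 ± 0.16 (adjusted p = 7.15e-05)), SEL1L (-1.04 ± 0.13 (adjusted p = 0.000198)) and EIF2AK3 (-1.03 ± 0.13 (adjusted p = 0.000188)), and higher for P4HB (0.79 ± 0.19 (adjusted p = 0.0113)) and HERPUD1 (0.72 ± 0.14 (adjusted p = 0.0028)). For shRNA2 the 6 genes were HSPA5 and EDEM1 (0.47 and 0.83, higher in MM1.S) and SEC24D, SPCS3, DERL1 and SEL1L (-0.61, -0.62, -0.54 and -0.50, lower in MM1.S). The shRNA2 split was 7 lower and 1 higher with TMM scaling (14.3%, against 9.81% of all genes), which moved the median of all genes to -0.09. The shRNA2 count was 18 in the blocked fit (32.1%, against 18.9% of all genes) and 1 to 3 without MM1.S scramble replicate 1 or any 1 of the 6 libraries of MM1.S shRNA2, H929 shRNA2 and the scramble for shRNA2. The shRNA1 difference in P4HB was lost without H929 shRNA1 replicate 1 (adjusted p = 0.0515). Line cannot be told apart from the separate processing of the 2 deposited tables.

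The 9 genes with ERSE or ERSE-II in their promoter windows (CALR, CANX, CRELD2, HERPUD1, HSP90B1, HSPA5, HYOU1, PDIA6 and SDF2L1) can be followed as a group by their letters. The letters picked these 9 from the 56 genes, which were themselves chosen with earlier results of these data known. With shRNA1, 5 were lower and 1 higher in MM1.S (median -0.44), and 5 were higher and 1 lower in H929 (median 0.21). With shRNA2, 4 were lower and 1 higher in MM1.S (median -0.44), and 8 were lower and 0 higher in H929 (median -0.57). HERPUD1 moved against the other called genes of the group in the first 3 of these comparisons, and was not called in the last. Against the other scramble group, the H929 values of CANX, HERPUD1, PDIA6 and SDF2L1 changed sign for shRNA1. Those of CANX, HERPUD1 and HYOU1 did so for shRNA2. Between the H929 scramble groups 6 of these 9 genes were higher and 1 lower in the libraries for shRNA2 than in those for shRNA1 (median 0.26). Of the 7 genes with a UPRE, 2 were lower with shRNA1 and 4 with shRNA2 in MM1.S, and in H929 2 were higher and 2 lower with shRNA1, whereas shRNA2 had 5 lower. Of all genes tested, 37.5% were called with shRNA1 and 36.6% with shRNA2 in MM1.S, and 53.4% and 43.0% in H929. Between the H929 scramble groups 29.9% were called. The counts of genes with these letters are a description, since no test compares genes with and without the letters.

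Other genes of the pathway, 70 that are not among the 56, gave a wider view. In MM1.S 69 were tested, of which 5 were higher and 25 lower with shRNA1 (median -0.23), and 4 higher and 27 lower with shRNA2 (median -0.31). In H929 70 were tested, of which 26 were higher and 24 lower with shRNA1 (median 0.04), and 2 higher and 35 lower with shRNA2 (median -0.26). In MM1.S 43.5% of them were called with shRNA1 and 44.9% with shRNA2, against 37.5% and 36.6% of all genes. In H929 these shares were 71.4% and 52.9%, against 53.4% and 43.0%. XBP1 is 1 of the transcription factors of the unfolded protein response, and its splicing was not measured here. It measured 733.4 and 711.0 CPM with shRNA1 and 553.9 and 558.9 CPM with shRNA2 in MM1.S, against 1303 and 1159.9 CPM with scramble. In H929 XBP1 measured 18980.4 and 18688 normalised reads with shRNA1, against 28597 and 28289 in its scramble libraries, and 22319.5 and 20519 with shRNA2, against 32793 and 34082 in theirs. XBP1 mRNA was below scramble in every knockdown library, at -0.77 ± 0.11 (adjusted p = 0.00158) and -1.15 ± 0.11 (adjusted p = 0.000286) in MM1.S by edgeR and -0.59 ± 0.09 (adjusted p = 2.88e-05) and -0.64 ± 0.09 (adjusted p = 2.41e-05) in H929 by limma.

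ATF4, the transcription factor translated when PERK is active, measured 234.5 and 248.8 CPM with shRNA1 and 377.7 and 387.7 CPM with shRNA2 in MM1.S, against 256.5 and 377.5 CPM with scramble, and passed with neither hairpin (-0.39 ± 0.18 (adjusted p = 0.119) and 0.27 ± 0.18 (adjusted p = 0.263), edgeR); the blocked fit gave adjusted p-values of 0.0102 and 0.0335. In H929 ATF4 measured 4096 and 4056 normalised reads with shRNA1, against 7362 and 7627 in its scramble libraries, and 7696 and 7078 with shRNA2, against 8323 and 8616 in theirs, and fell with shRNA1 (-0.88 ± 0.08 (adjusted p = 1.68e-07), limma; shRNA2 -0.20 ± 0.08 (adjusted p = 0.0588)). DDIT3, which encodes the death-promoting factor CHOP, measured 16.6 and 13.4 CPM with shRNA1 and 32.4 and 28.1 CPM with shRNA2 in MM1.S, against 7.08 and 16.8 CPM with scramble. In H929 DDIT3 measured 344.8 and 313.0 normalised reads with shRNA1, against 225.8 and 218.3 in its scramble libraries, and 185.9 and 196.0 with shRNA2, against 208.0 and 198.9 in theirs. DDIT3 rose with shRNA2 in MM1.S (1.34 ± 0.34 (adjusted p = 0.0185), edgeR) and with shRNA1 in H929 (0.56 ± 0.13 (adjusted p = 0.00144), limma), and was 0.33 and -0.09 in the other comparisons. CHAC1, a glutathione-degrading target of ATF4, was lower in H929 with shRNA1 (-2.79 ± 0.15 (adjusted p = 3.82e-10), limma) and with shRNA2 (-0.62). In MM1.S CHAC1 held 13.0 and 14.1 CPM with shRNA1 and 73.4 and 72.4 CPM with shRNA2, against 4.18 and 36.8 CPM with scramble, and passed with neither (-0.60 and 1.83); the blocked fit called shRNA2 (adjusted p = 0.00396).

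Among the other called genes with the greatest changes, ERO1B, an oxidase that recharges disulfide isomerases, measured 67.0 and 50.8 CPM with shRNA1 and 13.8 and 14.024 CPM with shRNA2 in MM1.S, against 7.31 and 6.56 CPM with scramble (3.09 ± 0.18 (adjusted p = 3.47e-05) and 1.00 ± 0.17 (adjusted p = 0.0035), edgeR). ERO1B also rose with shRNA1 in H929, to 379.5 and 455.7 normalised reads, against 207.3 and 189.3 in its scramble libraries (1.07 ± 0.19 (adjusted p = 0.000165), limma). FKBP11, a prolyl isomerase abundant in secretory cells, fell in all 4 comparisons, at -1.0002 and -2.03 in MM1.S and -0.24 and -1.15 in H929. BBC3, a death-promoting BCL2 relative, rose against the matching scramble in all 4, by 1.51 and 1.38 in MM1.S and 0.66 and 0.87 in H929. It was lower in the H929 scramble libraries for shRNA2 than in those for shRNA1, at -1.35 (adjusted p = 6.37e-07, limma). That difference exceeds the rise with shRNA2 in H929. Measured against the scramble libraries for shRNA1, the H929 shRNA2 value of BBC3 would thus change sign. The cargo receptor LMAN1 fell with shRNA2 in both lines (-1.17 and -1.54), while its partner MCFD2 rose with shRNA1 in both (0.86 and 1.19). STT3B, the other catalytic subunit of the oligosaccharyltransferase, fell with shRNA2 in both lines (-1.30 and -0.90) and rose with shRNA1 in H929 (0.73), as did UBE2J1, a ubiquitin-conjugating enzyme of ERAD (-0.69, -0.50 and 1.09). CREB3 fell with shRNA1 in both lines (-0.61 and -1.52), and UFD1L, which helps draw proteins out of the ER, fell in all 4 comparisons (-1.17, -0.60, -0.45 and -0.37).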

How the data were processed

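Poly(A)-selected RNA was sequenced from 14 libraries; per the submitters' processing notes the tools include STAR 2.5.3a and DESeq2 1.24.0, with GRCh38. Whether counting used strand is not given in the sources used here. For MM1.S the authors deposited raw read counts per gene (20461980 to 28419331 reads per library). For H929 the deposited values are a normalised signal, counts divided by 1 size factor per library: 100% of values came out as whole reads within 0.01 (15926867 to 22254348 reads). The authors' deposited tables of log2 fold changes, p-values and scores (standard errors and Wald statistics) called 6 of the ER genes higher and 37 lower with shRNA1 and 6 and 43 with shRNA2 in MM1.S, and 19 and 15, and 3 and 36, in H929. The tables hold 58069 rows, of which 18 repeat an identifier. Columns for shRNA2 in either line, and 1 column of the H929 scramble for shRNA1 (replicate 2), carry other names than the labels and were assigned by elimination.

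Computed here in R 4.3.3: MM1.S counts were tested with the edgeR 4.0.16 quasi-likelihood test (TMM scaling, minimum count 10), all 3 groups in the fit. H929 values, and both lines together, were tested with limma 3.58.1 (trend) on log2(value + 1), keeping genes with at least 10 in 2 libraries; this understates the change of low genes. P-values were Benjamini-Hochberg adjusted over all genes tested, with a threshold of 0.05. Alternatives were other scalings, pseudocounts of 0.5 and 5, no filter, DESeq2 1.42.0, edgeR on recovered H929 reads (21 higher and 15 lower with shRNA1, 3 and 32 with shRNA2), only the compared groups, a replicate block, leaving out each library and, added after seeing the data, the other or both scramble groups. In MM1.S, deviations from the group means correlated between same-numbered libraries (correlations of 0.571, 0.499 and 0.769 over 11200 genes), so the numbers pair them. The main MM1.S fit and the fits without 1 library leave this pairing out, and the blocked fit is given where it changes a call. The tests were tried on simulated counts first. Genes named with library values are those called in all 4 comparisons with scramble, the 2 largest changes each way per comparison, the sensors ERN1, EIF2AK3 and ATF6, and HSPA5; of other pathway genes, XBP1, ATF4, DDIT3 and up to 3 per comparison. The genes and lists were chosen with earlier results of these data known. Positions are from GENCODE; promoters are from RefSeq.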

Additional observations from a re-analysis of the deposited data

Results flagged for a closer look

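The effect of the same hairpin differed between MM1.S and H929 by a test of the difference itself (limma over all 14 libraries, Benjamini-Hochberg adjusted over 20370 genes) for 27 ER genes with shRNA1 and 6 with shRNA2. Each value is the log2 fold change in MM1.S minus that in H929. With shRNA1, 2 genes had the higher effect in MM1.S: P4HB (0.79, adjusted p = 0.0113) and HERPUD1 (0.72, adjusted p = 0.0028). The other 25 had the lower effect in MM1.S: CALR (-1.40, adjusted p = 7.15e-05), CANX (-0.56, adjusted p = 0.00895), DNAJB11 (-0.40, adjusted p = 0.0338), HSP90B1 (-0.76, adjusted p = 0.01), HSPA5 (-0.49, adjusted p = 0.0143), HYOU1 (-0.80, adjusted p = 0.00262), MANF (-0.65, adjusted p = 0.0041), SDF2L1 (-1.41, adjusted p = 0.00676), CRELD2 (-1.03, adjusted p = 0.0018), PDIA4 (-0.47, adjusted p = 0.0234), PDIA6 (-0.75, adjusted p = 0.000529), TXNDC11 (-0.55, adjusted p = 0.0104), SEC24D (-0.90, adjusted p = 0.000899), ERLEC1 (-0.67, adjusted p = 0.0192), OS9 (-0.41, adjusted p = 0.0322), SEL1L (-1.04, adjusted p = 0.000198), DDOST (-0.96, adjusted p = 0.000368), RPN1 (-0.63, adjusted p = 0.00311), RPN2 (-0.69, adjusted p = 0.00182), STT3A (-0.45, adjusted p = 0.014), ATF6B (-0.85, adjusted p = 0.00354), EIF2AK3 (-1.03, adjusted p = 0.000188), SPCS2 (-0.81, adjusted p = 0.000751), SPCS3 (-0.94, adjusted p = 0.002) and SSR1 (-0.53, adjusted p = 0.0484). With shRNA2, 2 genes had the higher effect in MM1.S: HSPA5 (0.47, adjusted p = 0.035) and EDEM1 (0.83, adjusted p = 0.0088). The other 4 had the lower effect there: SEC24D (-0.61, adjusted p = 0.02), DERL1 (-0.54, adjusted p = 0.0294), SEL1L (-0.50, adjusted p = 0.035) and SPCS3 (-0.62, adjusted p = 0.0378). Of all genes, 21.4% were called for shRNA1 and 9.75% for shRNA2. With any 1 library left out, 17 of the 25 lower genes for shRNA1 were still called, as was HERPUD1 of the 2 higher ones, and for shRNA2 EDEM1 alone was. Line, and the separate processing of the lines' tables, cannot be told apart.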

How the results depend on the processing

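The replicate block moved the MM1.S counts to 6 higher and 40 lower with shRNA1, 6 higher with shRNA2, and 39 called between shRNA2 and shRNA1, and the count for the line difference with shRNA2 to 18. In H929, where same-numbered libraries did not deviate together (correlations from -0.167 to 0.204), the block gave 19 higher and 15 lower calls for shRNA1, and for shRNA2 it gave 3 higher and 36 lower. Without a filter on low values, 2 genes were higher with shRNA2 in MM1.S, 15 were called between the H929 scramble groups and 3 for the line difference with shRNA2. Measured against the other scramble group, a comparison chosen after seeing the data, 23 genes were lower with shRNA1 and 5 higher with shRNA2 in H929. Signs turned round under that choice for shRNA1 in HERPUD1 (0.0973), DNAJB11 (-0.0038), RPN2 (-0.1622), CANX (-0.3020), SDF2L1 (-0.1085), PDIA6 (-0.0628), RPN1 (-0.2429) and OSTC (-0.2912), and for shRNA2 in HERPUD1 (-0.2918), DNAJB11 (0.2326), SPCS1 (0.2122), EDEM3 (0.0117), RPN2 (0.0927), CANX (0.0363), SEC61G (0.1201), UGGT1 (0.0255) and HYOU1 (0.0194), given as log2 fold changes. Other scalings, pseudocounts, tests and fits of the compared groups alone kept the called counts within 1.5 times of those reported; split by direction, DESeq2 gave 4 higher genes between the MM1.S hairpins, and TMM scaling 1 higher and 7 lower for the line difference with shRNA2.

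With 1 library left out, lower genes in MM1.S numbered 10 to 23 with shRNA1 and 19 to 30 with shRNA2, and higher genes 1 to 3 and 0 to 1. In H929, shRNA1 gave 16 to 22 higher and 12 to 15 lower, and shRNA2 gave 2 to 3 higher and 26 to 30 lower. The hairpin comparison gave 8 to 14 in MM1.S and 34 to 45 in H929, the H929 scramble comparison 13 to 18, and the line difference 21 to 28 with shRNA1 and 1 to 8 with shRNA2. The cause of these changes was not tested. With 2 libraries in each group, a group left with 1 library is assumed to vary like the others.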
